A study of Mus musculus with 16 samples.

Results

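The 8 genes described here encode the nuclear machinery of the thyroid hormone (TH) response and its products: the receptors Thra and Thrb, their partners Rxra and Rxrb, the corepressor Ncor1, the coactivator Ncoa1, and the T3 targets Hr and Klf9. They were taken by gene symbol out of 54658 symbols in the count tables. All 8 passed the filter of an average over 1 CPM, the counts of a gene scaled to a common library size, which kept 14004 genes. No member is a transporter of T3, and the transporters are given below as part of a list. The samples were mouse C17.2α neural cells, a stable line derived from neural stem cells of the cerebellum and engineered to overexpress TRα1, the receptor encoded by Thra. Serum was depleted of TH, no T3 was given in any library used here, and the cells were exposed for 24 h to DMSO, the solvent, or to a strobilurin, which is a fungicide directed against the mitochondrial cytochrome bc1 complex. The libraries were 2 of DMSO, 1 of azoxystrobin at 1000 nM, and 1 each of picoxystrobin, pyraclostrobin and trifloxystrobin at 30, 100, 300 and 1000 nM. No concentration was replicated, so a compound was represented by its 4 concentrations in place of replicates, and an SD within a compound includes any response to concentration. The labels do not say whether the 2 DMSO libraries came from separate cultures, and the p-values measure only the spread between these libraries.

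Thyroid hormone receptors are nuclear receptors that sit on DNA with or without hormone, most often as a heterodimer with a retinoid X receptor (RXR). Without T3 they hold corepressor complexes built on NCoR, which carry histone deacetylase activity, and keep target genes low. Binding of T3 changes the shape of the ligand-binding domain, the corepressor leaves, and coactivators of the p160 family such as the product of Ncoa1 bring histone acetyltransferases. In the nervous system the hormone acts on the maturation of neurons and glia, and Hr and Klf9 are among its well known direct targets.

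Total counts ranged from 12292390 to 18188099 per library, with a median of 16180381. A deposited library of azoxystrobin at 100 nM held the same count as the second DMSO library for every gene and was left out, so that 15 libraries were used. Of 7 neural progenitor markers, 5 passed 1 CPM on average (Nes, Vim, Sox2, Msi1 and Cdh2), Pax6 was under 1 CPM in every library, and Fabp7 averaged under 1 CPM. Of 4 neuron markers, Rbfox3, Syt1 and Snap25 were under 1 CPM in every library, and Tubb3 was at 11.7 to 30.2 CPM. Of the oligodendrocyte lineage markers, Sox10 was at 152 to 284 CPM and Olig2 at 3.64 to 8.18 CPM, and Mog was under 1 CPM. The 3 microglia markers were also under 1 CPM throughout, as were the astrocyte markers Aqp4 and Aldh1l1, and Gfap was at 1.39 CPM or lower. All 4 fibroblast markers were detected, with a summed level of 7546 to 8620 CPM in the DMSO libraries, so that the progenitor label of the line did not come with an absence of mesenchymal transcripts. The log2 difference from DMSO went with the GC content of the gene, across the tested genes of a library, with r = -0.529, -0.603 and -0.668 for picoxystrobin at 30, 100 and 300 nM. In picoxystrobin at 1000 nM r was 0.165, and in the other exposed libraries it lay between -0.306 and -0.0382. The 2 DMSO libraries also differed from each other on GC content, with r = 0.278 and -0.278 against their own mean, opposite by construction. Genes are not independent replicates, and these r values only describe the libraries. The fold changes, slopes and differences in single libraries were therefore also computed after a correction of each library for its trend on GC content and length. Levels, coefficients of variation, shares of genes in a position and the r values between genes are as counted.

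The positions and overlaps of the 8 genes in GENCODE M21 (GRCm38) bear on what a count can hold. Thra lies at chr11:98740638-98769006 on the plus strand, and its exons overlap those of Nr1d1 (REV-ERBα, a circadian repressor) on the opposite strand. Thrb lies at chr14:17660261-18038090, Rxra at chr2:27676440-27762957, Rxrb at chr17:34031812-34038399, Hr at chr14:70552212-70573548 and Klf9 at chr19:23141226-23168134, all on the plus strand. Ncor1 lies at chr11:62316426-62458541 and Ncoa1 at chr12:4247362-4477182, both on the minus strand. Exons of Ncor1 overlap those of Ttc19 and Pigl, and exons of Ncoa1 those of the antisense gene 4921501I09Rik, each on the opposite strand. Whether the counting used the strand is not given in the sources used here, so reads of these pairs cannot be told apart. A count for Thra also sums the endogenous transcripts of the gene with any read of the TRα1 transgene that aligned to it, and the deposited counts do not separate them.

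The receptors recognize the half-site AGGTCA, and the heterodimer of TR and RXR prefers a pair of half-sites in direct repeat with a spacer of 4 bases, the DR4 element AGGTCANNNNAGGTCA. Both were searched on both strands in RefSeq promoter windows (GRCm38.p6, 250 bases before to 50 bases after a start), which held 10 windows of 6 members. No window was available for Thra or for the T3 target Hr, so their promoters were not searched. None of the 10 windows held the DR4 element, against 5 of all 32851 windows (0.0152%), a share at which none of 10 is no result about these genes. The half-site was found in 2 of the 10, 1 of Rxra and 1 of Thrb, and in 16.3% of all windows. They are printed to show where the receptor and partner genes themselves carry these letters, 30 bases each on the plus strand with the half-site or its reverse complement in capitals. The printed stretches are chr2:27709193-27709222 and chr2:27709232-27709261, whose half-sites begin 87 and 48 bases before a start of Rxra, and chr14:17660764-17660793, whose half-site begins 184 bases before a start of Thrb.
Rxra, first match: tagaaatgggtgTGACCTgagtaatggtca
Rxra, second match: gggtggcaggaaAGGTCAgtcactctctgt
Thrb: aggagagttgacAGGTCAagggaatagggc
A match of letters is a description and not a binding site, and the direct repeat contains the half-site, so the second search is part of the first. Neither Rxra nor Thrb passed the test in a comparison of all libraries below.

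Compared per length of exons, the corepressor was the most abundant of the 8 transcripts. Ncor1 averaged 21.7 ± 2.19 CPM per kb (SD, n = 15), Thra 14.8 ± 1.84, Rxra 7.98 ± 1.42, Ncoa1 6.53 ± 0.590, Klf9 6.09 ± 0.572, Rxrb 2.70 ± 0.515, Thrb 1.41 ± 0.122 and Hr 0.573 ± 0.134. Each gene was above the next one in this order in all 15 libraries, except for Rxra, above Ncoa1 in 14, and Ncoa1, above Klf9 in 12. The ranges over the libraries overlapped for Ncor1 (16.8 to 23.6) and Thra (11.3 to 18.5), for Rxra and Ncoa1, and for Ncoa1 and Klf9, and these neighbours in the order were not separated beyond the spread of the single genes. The order of the means was the same per length of the longest transcript, where Ncor1 was at 30.8 and Thra at 27.9. At that length, however, Ncor1 was not above Thra in every library, so the first place of Ncor1 depends on the length used. Thra, which the line overexpresses, was thus above Thrb in every library, and the T3 target Hr was the lowest of the 8 in cells that had received no T3.

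**Figure D1:**
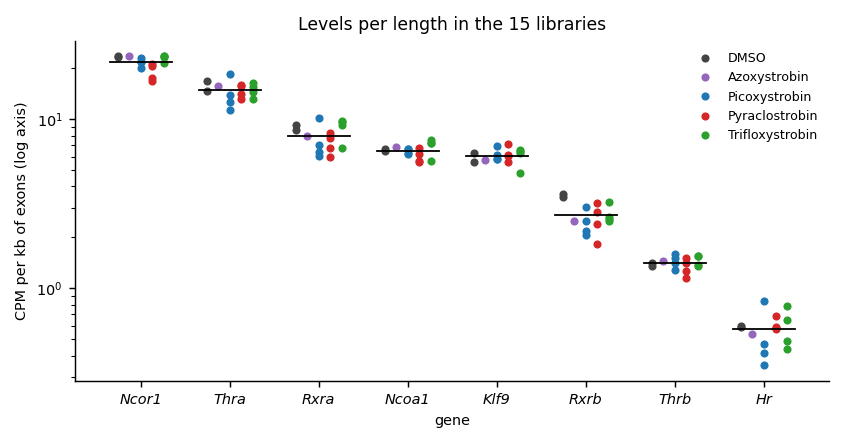
Level of each of the 8 genes in CPM per kb of exons on a log axis, with 1 point per library coloured by compound and a black bar for the mean of the 15 libraries. Ncor1 (mean 21.7) and Thra (14.8) stand at the top and Thrb (1.41) and Hr (0.573) at the bottom, and the ranges of Rxra, Ncoa1 and Klf9 overlap.

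The first question was whether a strobilurin changed the level of the receptors, their coregulators or their targets. With edgeR's quasi-likelihood test over 14004 genes (Benjamini-Hochberg adjusted p under 0.05), none of the 8 genes was called against DMSO for picoxystrobin, pyraclostrobin or trifloxystrobin. The share of all tested genes called was 0.0286%, 1.31% and 0.0% in these comparisons. None of the 8 was called between 2 of the compounds either, where the shares were 0.0286% for pyraclostrobin against picoxystrobin, 0.0428% for pyraclostrobin against trifloxystrobin and 0.0% for picoxystrobin against trifloxystrobin. In the trend on log10 concentration none was called, against 0.0% of all genes for picoxystrobin, 3.16% for pyraclostrobin and 0.0% for trifloxystrobin. DESeq2 also called none of the 8 in the 9 comparisons, where it called 0% to 6.24% of all tested genes. At all these shares none of 8 is no result about these genes. At an unadjusted p under 0.05, 1 of the 8 genes passed against DMSO with picoxystrobin (16.8% of all genes), 2 with pyraclostrobin (23.3%) and 0 with trifloxystrobin (1.71%). The corresponding numbers were 1 (12.8%), 2 (19.1%) and 0 (10.5%) for the 3 pairs in the order above, and 2 (11.3%), 2 (20.8%) and 1 (1.52%) for the trends of picoxystrobin, pyraclostrobin and trifloxystrobin. The median log2 fold change of the 8 genes from DMSO was -0.13 with picoxystrobin, -0.11 with pyraclostrobin and -0.01 with trifloxystrobin, beside medians of 0.01, 0.01 and 0.00 over all tested genes. The comparisons with DMSO share the 2 DMSO libraries, so their values for a gene are not independent of each other.

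**Figure D2:**
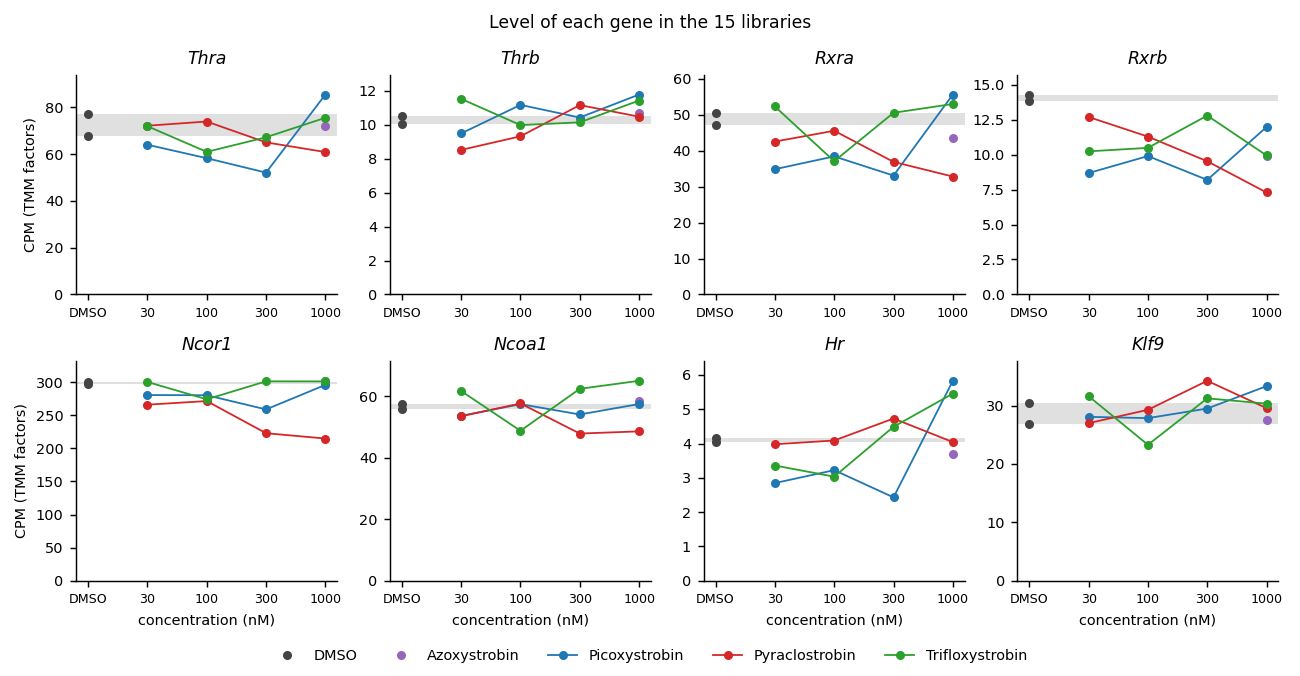
CPM of each of the 8 genes against concentration (nM), with 1 point per library, lines joining the 4 concentrations of a compound and a grey band between the 2 DMSO libraries. Rxrb lies below the band in all 13 exposed libraries, Ncor1 falls furthest with pyraclostrobin (to 215 CPM), and picoxystrobin at 1000 nM is the highest of its 4 concentrations for all 8 genes. The share of all tested genes in this last position was not computed. For Ncoa1 the values at 1000 and 100 nM are nearly equal (57.47 and 57.42 CPM).

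Thra gave 77.3 and 67.8 CPM in the DMSO libraries and 72.2 CPM with azoxystrobin. With picoxystrobin it was at 64.0, 58.3, 52.1 and 85.5 CPM at 30, 100, 300 and 1000 nM. The 3 lower concentrations were thus below both controls and the highest one above both. With pyraclostrobin the values in the same order were 72.1, 73.9, 65.0 and 60.9 CPM, and with trifloxystrobin 71.9, 61.0, 67.2 and 75.5 CPM, so that both compounds overlapped the controls. The log2 fold change from DMSO was -0.16 ± 0.16 (SE) with picoxystrobin, -0.10 ± 0.16 with pyraclostrobin and -0.08 ± 0.16 with trifloxystrobin (edgeR adjusted p = 0.602, 0.742 and 1). All 3 values changed sign after the correction for GC content and length, to 0.10, 0.07 and 0.02. The overlapping gene Nr1d1 had 56.3 and 55.9 CPM in DMSO and was lower in each of the 13 exposed libraries, at 24.3 to 53.1 CPM, which Thra was not.

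Thrb, the second receptor gene, was expressed at a low and even level and varied least of the 8, with a coefficient of variation of 8.63% over the 15 libraries beside a median of 14.1% over all tested genes. It was at 10.1 and 10.5 CPM in DMSO and at 10.7 CPM with azoxystrobin. Picoxystrobin gave 9.49, 11.2, 10.4 and 11.8 CPM with rising concentration, pyraclostrobin 8.52, 9.32, 11.2 and 10.5 CPM, and trifloxystrobin 11.5, 9.98, 10.1 and 11.4 CPM. No compound separated from the controls. Its log2 fold changes from DMSO were 0.06 ± 0.14, -0.06 ± 0.14 and 0.07 ± 0.14 in this order, and the 95% intervals, the widest from -0.35 to 0.24 and from -0.23 to 0.36, leave out a change of 2-fold. These values rest on 114 to 201 counts per library.

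Of the 2 RXR genes expressed, Rxrb lay below both controls in every exposed library and Rxra in all those of pyraclostrobin. Rxra, the more abundant partner per length, was at 50.5 and 47.1 CPM in DMSO and at 43.6 CPM with azoxystrobin. With picoxystrobin it was at 34.9, 38.4, 33.1 and 55.6 CPM with rising concentration, the first 3 below both controls and the last above them. All 4 pyraclostrobin libraries were below the controls, at 42.5, 45.5, 36.9 and 32.8 CPM. Trifloxystrobin gave 52.3, 37.1, 50.5 and 52.9996 CPM, with 1 low library at 100 nM. The log2 fold change from DMSO was -0.27 ± 0.19 with picoxystrobin, -0.31 ± 0.19 with pyraclostrobin and -0.02 ± 0.19 with trifloxystrobin (edgeR adjusted p = 0.468, 0.341 and 1). After the correction for GC content and length these values were -0.03, -0.11 and 0.07.

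Rxrb had 14.3 and 13.8 CPM in the controls, and every one of the 13 exposed libraries was lower. Such a position below both controls was seen for 2.96% of the tested genes, and Nr1d1 shared it. Azoxystrobin gave 9.89 CPM. Picoxystrobin gave 8.68, 9.89, 8.19 and 12.0 CPM with rising concentration, and trifloxystrobin 10.2, 10.5, 12.8 and 9.94 CPM. The pyraclostrobin values, 12.7, 11.3, 9.52 and 7.29 CPM, went down at each step of concentration. The log2 fold change from DMSO was -0.54 ± 0.19 with picoxystrobin, -0.47 ± 0.19 with pyraclostrobin and -0.37 ± 0.19 with trifloxystrobin, with 95% intervals of -0.95 to -0.13, -0.88 to -0.06 and -0.78 to 0.04. None passed the adjustment over all genes (edgeR adjusted p = 0.216, 0.166 and 1). The slope with pyraclostrobin was -0.52 ± 0.16 log2 units per 10-fold concentration (edgeR adjusted p = 0.0863). After the correction for GC content and length the fold changes were -0.23, -0.29 and -0.26, and the slope was -0.43 (adjusted p = 0.0687). The corrected log2 differences of pyraclostrobin at 30 nM (0.03) and trifloxystrobin at 300 nM (-0.02) lay between those of the controls (-0.04 and 0.04), so that the position below both controls in all 13 exposed libraries was not kept. Counts of Rxrb were 128 to 236 per library.

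Whether the RXR genes passed the test with picoxystrobin turned on 1 library. Without picoxystrobin at 1000 nM, the log2 fold change from DMSO became -0.46 for Rxra (edgeR adjusted p = 0.0439) and -0.65 for Rxrb (adjusted p = 0.0259), and both were called, beside 19.2% of all tested genes. Rxra was then also lower than with trifloxystrobin, by a log2 difference of -0.44 (adjusted p = 0.0331, with 15.1% of all genes called). With the same library left out and the correction for GC content and length applied, Rxra was at -0.09 (adjusted p = 0.779) and Rxrb at -0.22 (adjusted p = 0.546) against DMSO, neither was called, and 1.7% of all genes were. No member was called against trifloxystrobin in that setting either, with 0.6% of all genes called. The part of GC content in the lower values of picoxystrobin at 30 to 300 nM was not tested further.

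**Figure D3:**
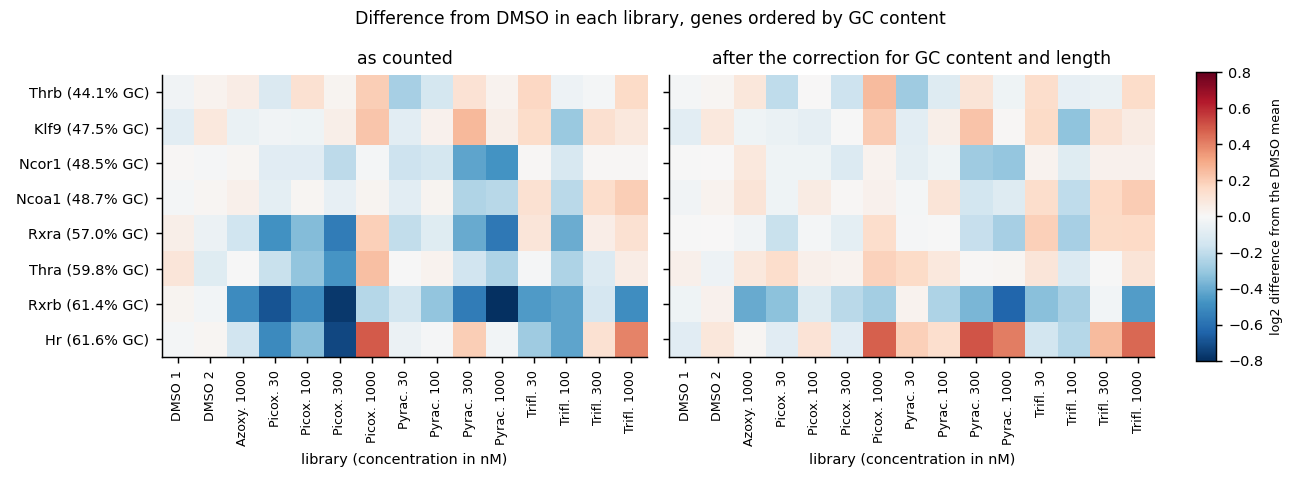
Log2 difference of each gene from the DMSO mean (colour) in the 15 libraries, with genes ordered from low to high GC content, as counted at left and after the correction for GC content and length at right. At left the 4 genes over 55% GC are blue in picoxystrobin at 30, 100 and 300 nM (medians -0.50, -0.34 and -0.64) and the colour is weaker at right (-0.14, 0.01 and -0.09).

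The members fell into 4 genes with over 55% GC in their longest transcript (Rxra 57.04%, Thra 59.8%, Rxrb 61.4% and Hr 61.6%) and 4 with under 50% (Thrb 44.1%, Klf9 47.5%, Ncor1 48.5% and Ncoa1 48.7%). In picoxystrobin at 30, 100 and 300 nM the median log2 difference from DMSO of the GC-rich members was -0.50, -0.34 and -0.64. It was -0.28, -0.31 and -0.45 for all 2816 tested genes over 55% GC in these libraries. The members under 50% GC had medians of -0.09, -0.01 and -0.02, and the 7539 tested genes under 50% had 0.12, 0.14 and 0.22. At 1000 nM both groups of members were above DMSO, with medians of 0.21 (GC-rich) and 0.11 (GC-poor), while all tested genes had 0.05 and -0.05. At 30 to 300 nM the difference between the 2 groups of members thus ran in the same direction as that between all GC-rich and GC-poor genes. This is a description of 4 genes in each group, without a test.

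The corepressor gene Ncor1 had 301 and 297 CPM in DMSO and 302 CPM with azoxystrobin. Pyraclostrobin gave 266, 272, 223 and 215 CPM with rising concentration, all below the controls and all below the 4 trifloxystrobin libraries (300.4, 274, 301 and 301 CPM). Picoxystrobin gave 281, 280, 259 and 296 CPM, also below the controls but by less. After the correction for GC content and length, picoxystrobin at 1000 nM had a log2 difference of 0.03 and lay above both controls (-0.0004 and 0.0004). Libraries all below the controls as counted were seen for 18.7% of the tested genes with pyraclostrobin, 13.3% with picoxystrobin and 7.76% with trifloxystrobin, and among the members for 3 (Rxra, Rxrb and Ncor1), 2 (Rxrb and Ncor1) and 1 (Rxrb). Pyraclostrobin libraries all below those of trifloxystrobin as counted were seen for 5.88% of genes, and among the members for Ncor1 alone. For Ncor1 this position was not kept after the correction, where pyraclostrobin at 100 nM was at -0.03 and trifloxystrobin at 100 nM at -0.10. As counted, no member was above both controls in every library of a compound, a position held by 11.6%, 18.0% and 7.57% of the tested genes with picoxystrobin, pyraclostrobin and trifloxystrobin and by 2.21% in all 13 exposed libraries.

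The log2 fold change of Ncor1 with pyraclostrobin was -0.30 ± 0.10 from DMSO (edgeR adjusted p = 0.113), -0.27 ± 0.08 from trifloxystrobin (adjusted p = 0.150) and -0.19 ± 0.08 from picoxystrobin (adjusted p = 0.361). Its slope with pyraclostrobin was -0.24 ± 0.09 per 10-fold concentration (adjusted p = 0.158). The 95% interval of the difference from DMSO, -0.51 to -0.08, leaves out a fall by 2-fold. None of these passed the threshold, and after the correction for GC content and length the difference from DMSO was -0.17 (adjusted p = 0.243). The summed level of the 4 fibroblast markers moved in the same direction, from 7546 to 8620 CPM in DMSO to 4112 to 6440 CPM with pyraclostrobin. Against DMSO 1 of these markers, Col1a1, was called (log2 fold change -0.90, edgeR adjusted p = 0.0450), beside 1.31% of all tested genes. The call was lost in a fit of pyraclostrobin and DMSO alone, where 0 of 14004 genes were called. The part of the fibroblast markers in the value of Ncor1 was not tested.

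Ncoa1, which encodes the p160 coactivator SRC-1, was at 55.97 and 57.4 CPM in DMSO and at 58.4 CPM with azoxystrobin. Picoxystrobin stayed close to these values at 53.6, 57.4, 54.1 and 57.5 CPM with rising concentration. Pyraclostrobin gave 53.5, 57.7, 47.9 and 48.6 CPM, with all but 100 nM below both controls, and trifloxystrobin 61.7, 48.8, 62.4 and 65.0 CPM, with all but 100 nM above them. The log2 fold changes from DMSO were -0.03 ± 0.11, -0.13 ± 0.11 and 0.07 ± 0.11. Pyraclostrobin was -0.20 ± 0.09 from trifloxystrobin (edgeR adjusted p = 0.261).

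The other genes of the corepressor and coactivator complexes showed how far the pattern of Ncor1 extended. Of 4 further genes of the corepressor complexes (the histone deacetylase gene Hdac3 and Tbl1x, Tbl1xr1 and Gps2), all tested, 0 were called in any of the 9 comparisons, where 0.0% to 3.16% of all genes were, a share at which none of 4 is no result about these genes. Their median log2 fold change from DMSO was 0.01 with picoxystrobin, -0.04 with pyraclostrobin and 0.05 with trifloxystrobin.

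Of 9 further coactivator genes, all tested, 1 was called lower and 0 higher with pyraclostrobin against DMSO, and 0 were called with picoxystrobin or trifloxystrobin, beside 1.31%, 0.0286% and 0.0% of all tested genes. The called gene was Crebbp, which encodes the histone acetyltransferase CBP. It was at 298 and 266 CPM in DMSO, at 194, 191, 127 and 119 CPM with pyraclostrobin, at 207, 209, 186 and 209 CPM with picoxystrobin and at 245, 256, 233 and 215 CPM with trifloxystrobin. All 12 of these libraries were below both controls, as was azoxystrobin (242 CPM), and those of pyraclostrobin at 300 and 1000 nM were lowest. All 13 exposed libraries were below both controls for 2.96% of the tested genes. The log2 fold change with pyraclostrobin was -0.84 ± 0.16 (edgeR adjusted p = 0.0355), and the slope was -0.54 ± 0.11 per 10-fold concentration (adjusted p = 0.0309). Both calls remained after the correction for GC content and length (-0.61, adjusted p = 0.0417, and a slope of -0.42, adjusted p = 0.0180). It was lost in a fit of pyraclostrobin and DMSO alone (-0.84, adjusted p = 0.111) and without the first or second DMSO library (-0.76 and -0.92, adjusted p = 0.373 and 0.268) or pyraclostrobin at 300 or 1000 nM (-0.75 and -0.73, adjusted p = 0.122 and 0.0864). The slope was not called without pyraclostrobin at 30, 300 or 1000 nM (-0.68, -0.49 and -0.60, adjusted p = 0.108, 0.0801 and 0.493). Ep300, which encodes the related acetyltransferase p300, was at 312 and 284 CPM in DMSO and at 234, 241, 174 and 176 CPM with pyraclostrobin (log2 fold change -0.53 ± 0.13, adjusted p = 0.0588). Its adjusted p was 0.0116 with DESeq2 and 0.126 in a fit of pyraclostrobin and DMSO alone, and the corrected value for GC content and length was -0.34 (adjusted p = 0.0926). The median log2 fold change of the 9 genes with pyraclostrobin was -0.31, beside 0.01 for all tested genes. Of the 9 genes 7 had a value below 0, and Kat2b and Ppargc1a went the other way. Kat2b was at 55.3 and 60.1 CPM in DMSO and at 63.9, 59.3, 88.1 and 96.1 CPM with pyraclostrobin with rising concentration. Ppargc1a averaged 0.75 CPM in DMSO and 1.18 CPM with pyraclostrobin, close to the filter.

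**Figure D4:**
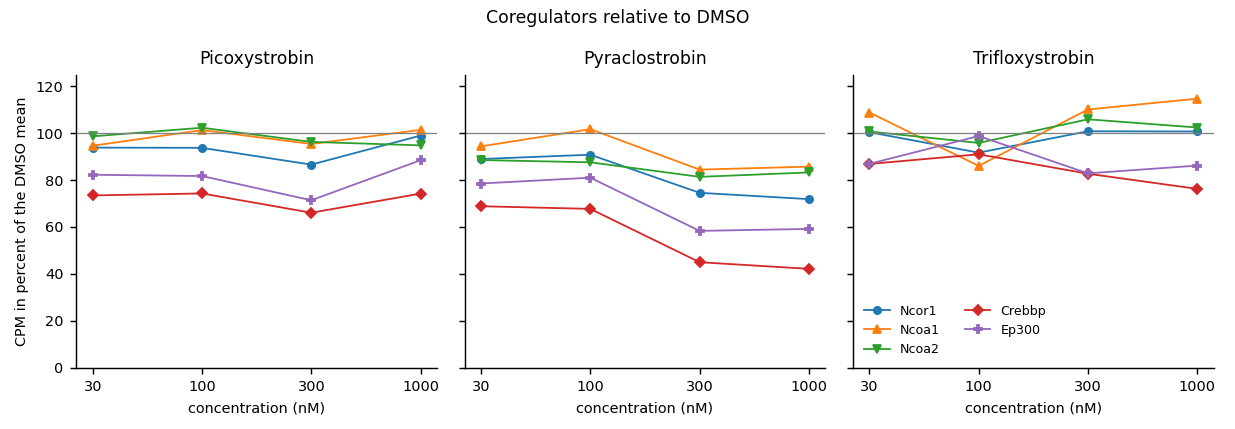
CPM of 5 coregulator genes in percent of the DMSO mean (grey line at 100) against concentration (nM), 1 panel per compound and 1 point per library. With pyraclostrobin at 1000 nM Crebbp stands at 42.1%, Ep300 at 59.1% and Ncor1 at 71.9%, while with trifloxystrobin at 1000 nM Ncor1 stands at 100.7%.

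Hr, which encodes the nuclear corepressor Hairless, was the lowest of the 8 genes. It was at 4.06 and 4.16 CPM in DMSO (67 and 71 counts) and at 3.69 CPM with azoxystrobin. Picoxystrobin gave 2.85, 3.22, 2.43 and 5.83 CPM with rising concentration, the first 3 below both controls and the last the highest of the 15 libraries. Pyraclostrobin gave 3.98, 4.09, 4.73 and 4.04 CPM, around the controls as counted. Trifloxystrobin gave 3.36, 3.03, 4.49 and 5.46 CPM, with the lower pair of concentrations below the controls and the upper pair above. The log2 fold change from DMSO was -0.20 ± 0.30 with picoxystrobin, 0.03 ± 0.29 with pyraclostrobin and -0.01 ± 0.29 with trifloxystrobin, with 95% intervals of -0.82 to 0.43, -0.59 to 0.66 and -0.63 to 0.61. Hr varied most among the 8, with a coefficient of variation of 23.5%, and rests on 38 to 92 counts per library, so that a change within these intervals was not detectable at this depth and number of libraries. After the correction for GC content and length the log2 fold change of Hr was 0.32 with pyraclostrobin (adjusted p = 0.412), 0.13 with picoxystrobin and 0.11 with trifloxystrobin. The corrected log2 differences of the pyraclostrobin libraries, 0.19, 0.13, 0.50 and 0.41 with rising concentration, were then all above those of the controls (-0.09 and 0.09). The share of all tested genes in such a position after the correction was not computed. As counted it was 18.0% with pyraclostrobin.

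The slope of Hr on concentration was 0.62 ± 0.24 log2 units per 10-fold with picoxystrobin (edgeR adjusted p = 0.420) and 0.54 ± 0.24 with trifloxystrobin (adjusted p = 1.000), and 0.05 ± 0.24 with pyraclostrobin. Rxra had a slope of 0.38 ± 0.16 with picoxystrobin (adjusted p = 0.427). These slopes with picoxystrobin rested on the library at 1000 nM, without which they were -0.21 for Hr and -0.07 for Rxra. Without the library at 300 nM both were called, at 0.72 for Hr (adjusted p = 0.0318) and 0.46 for Rxra (adjusted p = 0.0456), beside 10.7% of all tested genes. With that library left out and the correction for GC content and length neither was called (0.40 with adjusted p = 0.188 and 0.20 with adjusted p = 0.313), beside 1.35% of all genes.

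Klf9, a zinc finger transcription factor induced by T3 in neural cells, changed little. It was at 26.9 and 30.4 CPM in DMSO and at 27.5 CPM with azoxystrobin. With rising concentration it was at 28.1, 27.9, 29.5 and 33.3 CPM with picoxystrobin, 27.0, 29.3, 34.2 and 29.6 CPM with pyraclostrobin, and 31.6, 23.3, 31.2 and 30.3 CPM with trifloxystrobin. All compounds overlapped the controls. The log2 fold changes from DMSO were 0.05 ± 0.14, 0.07 ± 0.14 and 0.02 ± 0.14 (edgeR adjusted p = 0.863, 0.788 and 1). Their 95% intervals together span -0.27 to 0.36, which leaves out a rise by 2-fold.

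**Figure D5:**
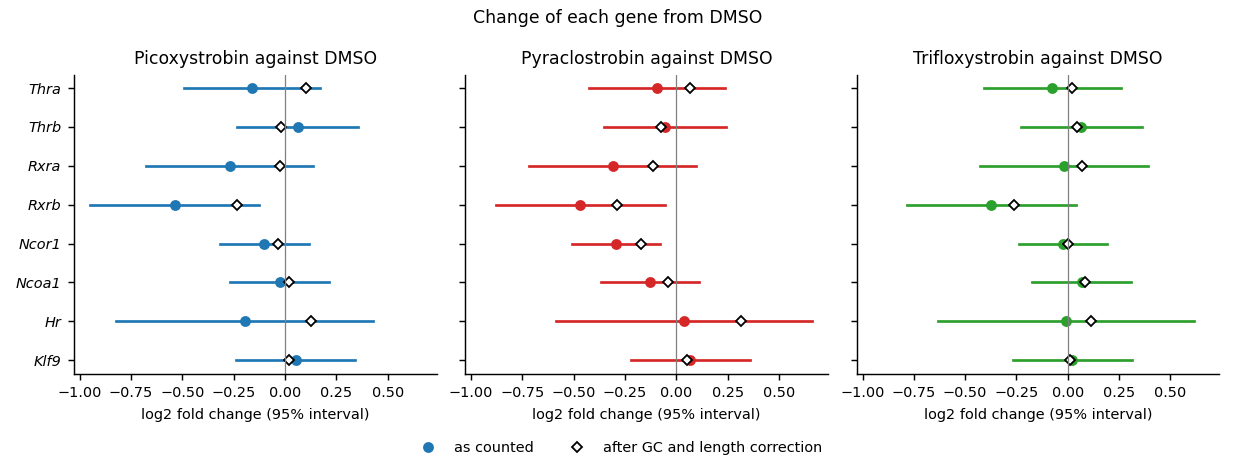
Log2 fold change from DMSO of each gene (circle) with its 95% interval (line) for 3 compounds, and the value after the correction for GC content and length (diamond). The intervals of Rxrb with picoxystrobin (-0.95 to -0.13) and pyraclostrobin (-0.88 to -0.06) and of Ncor1 with pyraclostrobin (-0.51 to -0.08) leave out 0 before adjustment over all genes, and the other intervals include it.

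Of 13 further genes reported to respond to T3 in brain, liver or heart, 8 were tested and 0 were called in any of the 9 comparisons, beside 0.0% to 3.16% of all tested genes, so that this count says nothing particular about them. The 3 most abundant by CPM were Atp2a2, a calcium pump, Fasn, the fatty acid synthase, and Me1, the malic enzyme. Their log2 fold changes with pyraclostrobin were -0.13 ± 0.10, -0.43 ± 0.17 and 0.30 ± 0.14 (edgeR adjusted p = 0.473, 0.145 and 0.217). The median over the 8 genes was 0.11 with picoxystrobin, -0.20 with pyraclostrobin and 0.01 with trifloxystrobin, beside 0.01, 0.01 and 0.00 over all tested genes. Nr1d1, which overlaps Thra, was -0.71 ± 0.20 with pyraclostrobin (adjusted p = 0.0778) and was called by DESeq2 (adjusted p = 0.0260) and with no filter on low counts (adjusted p = 5.62e-04). It was also called without pyraclostrobin at 100 nM (-0.87, adjusted p = 0.0286), and with picoxystrobin without the library at 1000 nM (-0.62, adjusted p = 0.0301, beside 19.2% of all genes). With the correction for GC content and length it was not called in either case (-0.58 with pyraclostrobin, adjusted p = 0.0693, and -0.30 with picoxystrobin without 1000 nM, adjusted p = 0.371), nor in a fit of pyraclostrobin and DMSO alone (adjusted p = 0.136).

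Rxrg, the third RXR gene, had 0 counts in every library. Of 8 genes of TH transport and metabolism, 2 were tested, the transporters Slc7a5 and Slc16a10, and 0 were called. Slc7a5, a subunit of an amino acid transporter that also carries TH, was at 315 and 387 CPM in DMSO and at 216, 282, 179 and 170.3 CPM with pyraclostrobin with rising concentration, all below both controls (log2 fold change -0.73 ± 0.26, edgeR adjusted p = 0.122). Such a position was held by 18.7% of the tested genes. Slc16a10, which encodes the TH transporter MCT10, was at 83.1 and 67.7 CPM in DMSO and at 78.6, 85.3, 109 and 118 CPM with pyraclostrobin (log2 fold change 0.38 ± 0.16, adjusted p = 0.167). The deiodinase genes Dio1, Dio2 and Dio3, whose enzymes activate or inactivate TH, were under 1 CPM in every library.

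The members were also compared with all 9758 genes of an average over 10 CPM for the likeness of their log2 CPM across the 15 libraries, which share compounds, depth and GC trend. The 2 genes most like each member were Bak1 and Mcrip1 for Thra (Pearson's r = 0.943 and 0.942), Hs6st1 and Tkt for Rxra (0.960 and 0.959), and Mau2 and Tab1 for Rxrb (0.935 and 0.910). They were Kdm4a and Cdk12 for Ncor1 (0.979 and 0.977), Cars and Tnfaip2 for Ncoa1 (0.922 and 0.918), Rassf2 and Serinc5 for Klf9 (0.893 and 0.873), and Prkab2 and Washc5 for Thrb (0.768 for both). The match was thus closest for Ncor1 and weakest for Thrb, whose level varied least. Among the members themselves, r was highest for Thra and Rxra (0.843) and for Ncor1 and Ncoa1 (0.807). It was 0.0974 for Thra and Thrb and 0.534 for Hr and Klf9. These r values are a description of 15 libraries and were given no p.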

How the data were processed

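RNA-seq libraries (Lexogen SENSE total RNA kit, single-end, NextSeq500) were aligned, per the labels' processing notes, with Bowtie2 2.3.2.2 to mm10 and counted by the authors with htseq-count. The deposited values are raw counts per gene symbol, 1 table per library, without normalization or pooling. The annotation release and strand setting are not given in the sources used here. Of the 54658 symbols 54092 were found in GENCODE M21. Libraries were grouped by the compound in their labels. TMM factors scaled the counts, and edgeR 4.0.16 (R 4.3.3) tested 14004 genes averaging over 1 CPM by quasi-likelihood, in 1 model of 15 libraries with 1 level per compound (10 residual degrees of freedom) and in a second with a slope on log10 concentration per compound (7 residual degrees of freedom). Azoxystrobin, with 1 independent library, was given values only. p-values were adjusted over all tested genes by the Benjamini-Hochberg method. A prior count of 2 went into the log2 values of single libraries. The GC correction fitted natural splines (4 degrees of freedom) on the GC content and the length of a gene's longest transcript in each library. The fit was tested on simulated data. Depth limits mostly Hr, Thrb and Rxrb, and the number of libraries limits the others. Alternatives were DESeq2 1.42.0, RLE size factors, averages over 10 CPM or no filter, all 16 libraries, separate fits, concentration as a block, grouped concentrations, CPM without TMM and each library left out. Per-length levels by longest transcript, the GC correction with a library left out, and single DMSO controls were chosen after seeing the data. The 8 genes are all given. The other genes named were the called members of each list and its 3 most abundant genes at most, Nr1d1, and the 2 genes most like each member averaging over 10 CPM. Ep300, Kat2b and Ppargc1a were chosen after their values were seen. Some genes of these lists are not reported here. Members and lists were chosen with earlier results of these data known. Plots used matplotlib 3.10.9 in Python 3.11.15.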

Additional observations from a re-analysis of the deposited data

Results flagged for a closer look

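In 4 of the 24 groups of a member and a compound with 4 libraries, 1 library lay far from the other 3 by Dixon's criterion. The criterion is set to be reached by chance in about 1 of 20 groups of replicates. The 24 groups share libraries and are not independent, so their number cannot be set against that rate. The share over all tested genes was not computed. With trifloxystrobin, the library at 100 nM was the lowest for Rxra (37.1 CPM), Ncor1 (274 CPM) and Klf9 (23.3 CPM). With pyraclostrobin, the library at 300 nM was the highest for Hr (4.73 CPM). Groups of a compound hold different concentrations, so a library that stands apart cannot be told apart from a response at that concentration. Without trifloxystrobin at 100 nM none of these genes was called in a comparison with that compound. That setting called 0% to 0.00714% of all tested genes in these comparisons, so it says nothing particular about them.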

How the results depend on the processing

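No paired analysis was possible because only the DMSO labels carry replicate numbers, but compounds share concentrations. With concentration as a block 0 members were called in the 3 pairs of compounds. That setting called 0 of all 14004 tested genes in each pair, so it says nothing particular about the members. Over the alternatives, 991 values of the 8 genes in the 9 comparisons were computed, of which 887 kept direction and side of the threshold, 99 changed direction (87 of them for values within 1 standard error of 0) and 5 passed the threshold. The number of members called was 0 in every alternative that kept all libraries, and with a library left out it ranged from 0 to 2 for picoxystrobin against DMSO, 0 to 1 for picoxystrobin against trifloxystrobin and 0 to 2 for the trend of picoxystrobin. The GC and length correction changed the direction of the difference from DMSO for Thra (0.10 with picoxystrobin, 0.065 with pyraclostrobin and 0.023 with trifloxystrobin), Hr (0.13 with picoxystrobin and 0.11 with trifloxystrobin, and with no change of direction 0.32 from 0.03 with pyraclostrobin), Thrb (-0.018) and Ncoa1 (0.019) with picoxystrobin, and Rxra (0.070) and Ncor1 (0.0010) with trifloxystrobin. Together with picoxystrobin at 300 nM left out it gave 0.12 for Thra, 0.022 for Ncoa1 and 0.19 for Hr, and with 1000 nM left out 0.069 for Thra, -0.12 for Thrb, 0.014 for Ncoa1 and -0.046 for Klf9. Leaving out 1 library gave ranges that crossed 0 for Klf9 (-0.033 to 0.14 with picoxystrobin, -0.017 to 0.16 with pyraclostrobin and -0.063 to 0.12 with trifloxystrobin), Thra (-0.19 to 0.0031 with pyraclostrobin and -0.17 to 0.023 with trifloxystrobin), Thrb (-0.12 to 0.0092 with pyraclostrobin), Hr (-0.026 to 0.061 with pyraclostrobin and -0.18 to 0.12 with trifloxystrobin), Rxra (-0.068 to 0.089) and Ncor1 (-0.035 to 0.0089) with trifloxystrobin, and the slopes with picoxystrobin of Rxra (-0.070 to 0.55) and Hr (-0.21 to 0.92). The cause of these changes was not tested.

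Counts of called genes over the whole table varied more. Against DMSO, 4 genes were called for picoxystrobin (176 with DESeq2, 210 with no filter, 0 with the GC correction or a separate fit, and 0 to 2685 with a library left out) and 184 for pyraclostrobin (874, 1195, 219 and 0 in the same order, 309 with all 16 libraries, and 0 to 953). Between compounds, 4 were called for pyraclostrobin and picoxystrobin (42 with DESeq2, 339 with no filter, 2 over 10 CPM, 0 with concentration as a block, and 2 to 2226 with a library left out), 6 for pyraclostrobin and trifloxystrobin (318, 808, 2, 0 and 0 to 338) and 0 for picoxystrobin and trifloxystrobin (37, 16, 0, 0 and 0 to 2117). The trend gave 0 for picoxystrobin (491 with no filter and 0 to 1495 with a library left out) and 443 for pyraclostrobin (767 with DESeq2, 289 over 10 CPM, 1246 with no filter, 716 with all 16 libraries, 1060 with the GC correction, 955 with grouped concentrations, and 0 to 137).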
